A study of Homo sapiens with 6 samples.

Results

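Cholesterol and fatty acids are built from cytosolic acetyl-CoA, and the genes described here are 33 genes of those routes and their control in cells of the triple-negative breast cancer line MDA-MB-231, a human line in wide use. They were taken by symbol from a table of 20042 genes: 7 genes of the mevalonate steps, 11 of the sterol steps, 6 of the control of SREBP and of sterol transfer, 4 of fatty acid synthesis and 5 of the liver X receptor (LXR) and oxysterol response. All 33 were found and all 33 had enough counts to be tested, so that none was lost to the filter on low counts. The cells, of genotype WT per the labels, were transfected either with a control small interfering RNA (siCTRL, n = 3) or with ERBBride-targeting siRNA-1 (siRNA-1, n = 3), and total RNA was sequenced. The title of the series speaks of a long non-coding RNA, a transcript that is not translated. The count table had no row named ERBBride, so the knockdown could not be checked, and with 1 siRNA an effect of its sequence cannot be told apart from an effect of its target. Neither the time after transfection nor the siRNA dose is given in the labels.

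Cells sense sterols in the membrane of the endoplasmic reticulum. When sterols are low, the escort protein SCAP carries the precursors of the transcription factors SREBP-1 and SREBP-2 (genes SREBF1 and SREBF2) to the Golgi, where cleavage releases the active factors. SREBP-2 acts mainly on cholesterol genes and SREBP-1 mainly on fatty acid genes. When sterols are high, the INSIG proteins hold SCAP back, while oxysterols activate LXR, which turns on genes of cholesterol export. These are RNA levels, and they say nothing of SREBP cleavage, of enzyme activity or of the amount of any lipid.

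Levels are counts-per-million (CPM) normalised with TMM factors (trimmed mean of M values), given as mean ± SD with n = 3. Fold changes compare siRNA-1 with siCTRL, and a gene is called where its adjusted p is under 0.05 (edgeR quasi-likelihood test, two-sided, adjusted over the 12440 genes tested). The cultures of a group are biological replicates per the labels, which do not say how they were kept apart, so p-values reflect only the spread among these 6 samples. Total counts were 12813706 to 15014434 per library, and 3 counts were worth at most 0.233 CPM. Markers of the basal B type of breast line (VIM, CD44, AXL, EGFR, MSN) summed to 6665 to 6925 CPM in siCTRL and to 3545 to 3706 CPM in siRNA-1 libraries. All 5 were called lower, as were 31.0% of all genes tested, and the fall was not particular to this list. Luminal markers summed to 27.8 to 32.1 CPM in siCTRL and 9.80 to 10.9 CPM in siRNA-1, with PGR at 0 counts in all libraries and 3 of 3 tested called lower. Blood markers summed to 15.9 to 20.5 CPM in siCTRL and 7.61 to 8.88 CPM in siRNA-1, with 2 of 2 tested called lower. Endothelial markers summed to 15.6 to 17.6 and 8.25 to 10.8 CPM, with 2 of 2 tested called lower. Fibroblast markers summed to 26.4 to 28.3 and 17.6 to 20.8 CPM, with 1 of 3 tested called lower. CD3E, MS4A1, HBB, CDH5 and DCN were at 0, and adipocyte markers summed to at most 1.57 CPM in any library. The part of these differences in the results was not tested. All libraries are of 1 cultured line per the labels, so reads of these markers are not taken as other cell types. In a bulk sample fewer cells that express a gene and less RNA per cell cannot be told apart.

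The control library siCTRL 2 stood apart from the others, and the genes of cholesterol synthesis were among those in which it did so. On the second principal component of all genes (8.43% of the variance) it lay at -22.3, with the other libraries between -2.9 and 13.3. All 18 genes of the mevalonate and sterol steps were lower in siCTRL 2 than in both other controls, against 41.0% of all genes tested. The 4 fatty acid synthesis genes were also lower than in both, as were 62 of the 100 other lipid genes tested (lists below). Of all 12440 genes tested, 5096 were lower and 5126 higher in siCTRL 2 than in both other controls. Set against the average of siCTRL 1 and 3, siCTRL 2 had a median log2 difference of -0.385 over these 18 genes (range -0.70 to -0.10) and of 0.003 over all genes tested. The other controls were close to each other in the same genes, with a median absolute difference of 0.039 between siCTRL 1 and siCTRL 3 (largest 0.17). SCD (-0.42) and INSIG1 (-0.43) were also lower in siCTRL 2, while ABCG1 was higher (0.71). What sets this library apart was not tested, and counts of the 33 genes are therefore given with and without it.

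**Figure D1:**
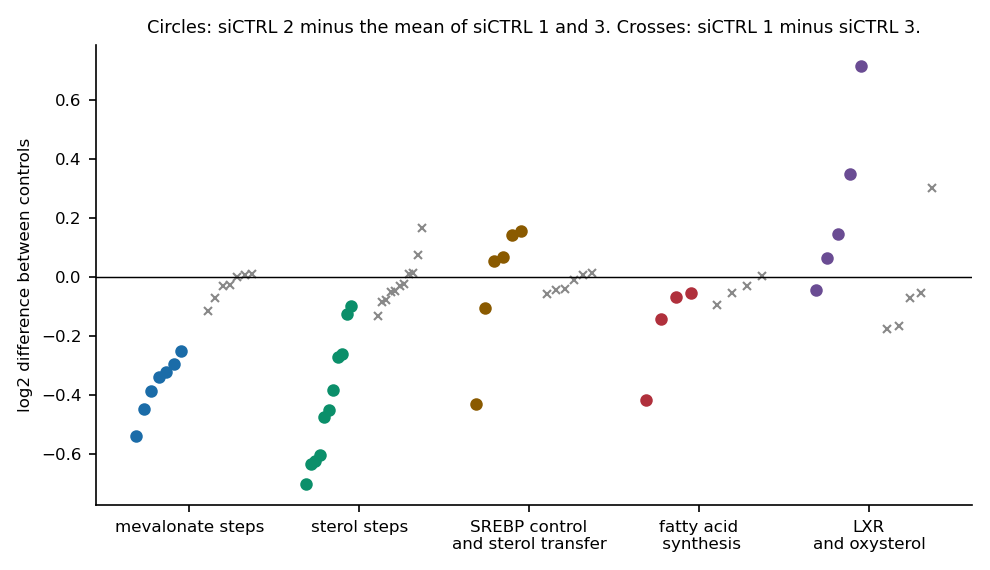
Difference between control libraries for each of the 33 genes, on the log2 scale (y axis), by role (x axis). Coloured circles are siCTRL 2 minus the mean of siCTRL 1 and 3, and grey crosses are siCTRL 1 minus siCTRL 3. The circles of all 18 mevalonate and sterol genes lie below 0, from -0.70 to -0.10, while their crosses lie within 0.17 of 0.

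Of the 33 genes, 10 were higher and 10 lower in siRNA-1 cells and 13 did not pass the test. That is 60.6% called, with 62.5% of all genes tested called, and 30.3% in each direction, with 31.5% of all genes called higher and 31.0% called lower. The share of called genes was thus near that of all genes, and the description turns on which genes moved and by how much. The counts by role given below are of few genes and are to be read against these shares. The median log2 fold change was -0.075 over the 33 genes and 0.006 over all genes tested. The groups did not overlap at 18 of the 33 genes (54.5%), against 67.6% of all genes tested. Without siCTRL 2 they did not overlap at 31 of 33 (93.9%), against 77.8% of all genes tested. Without siCTRL 2, 10 were higher and 20 lower, with 33.9% of all genes called higher and 35.0% called lower, and the median was -0.215. The common biological coefficient of variation of the fit was 0.0656 with all libraries and 0.0326 without it. The prior degrees of freedom were 7.69 and 74.3. Without siCTRL 2 the variance of each gene was thus drawn more to the trend over all genes. Without that library limma-voom also called 10 higher and 20 lower, and DESeq2 10 higher and 19 lower, alternatives that were chosen after seeing the data. In 4 genes the change was at least 2-fold: MSMO1, INSIG2 and ABCA1 were lower and CH25H was higher.

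**Figure D2:**
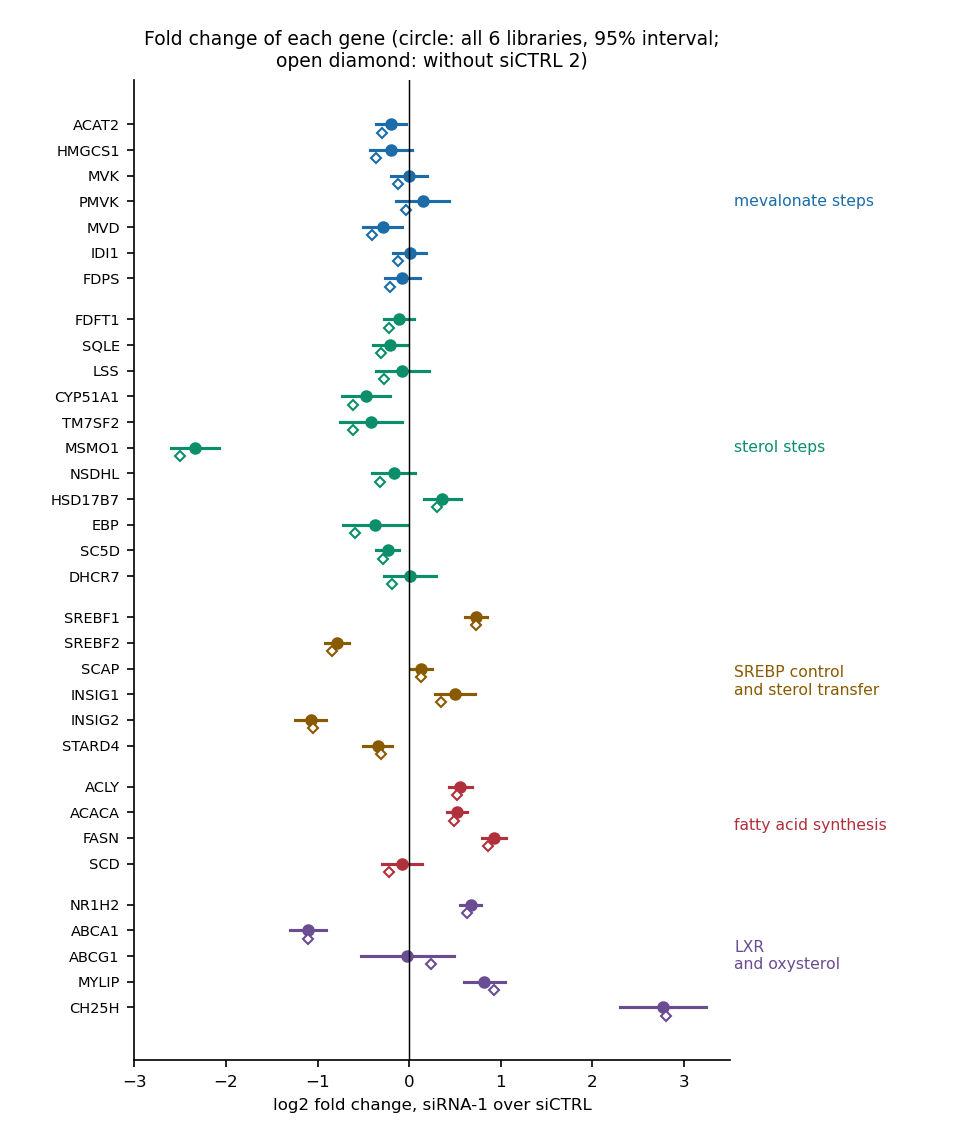
Log2 fold change of siRNA-1 over siCTRL (x axis) for the 33 genes (y axis), grouped by role. Circles are all libraries with 95% intervals of the fit, and open diamonds are without siCTRL 2. MSMO1 (-2.34) and CH25H (2.77) lie at the ends, the other mevalonate and sterol genes between -0.47 and 0.36, and these shift to the left without siCTRL 2.

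The sequence before the start of 5 genes is printed because these genes mark the results below: MSMO1, the largest fall; SREBF2, the 1 gene with an exact sterol element; INSIG1 and INSIG2, paralogs that moved in opposite directions; and CH25H, the largest rise. Sequences are from RefSeq (GRCh38.p14), 5′ to 3′ on the strand of the gene, and end before the start of the gene in both RefSeq and GENCODE 29. They lie at chr4:165327473-165327622 (plus), chr22:41832929-41833078 (plus), chr7:155297628-155297775 (plus), chr2:118088302-118088451 (plus) and chr10:89207318-89207467 (minus). Capitals mark matches on either strand to TCACCCCAC (the core of the sterol regulatory element to which SREBPs bind), CCAAT (read as ATTGG on the other strand, the box bound by NF-Y), GGGCGG (read as CCGCCC on the other strand, the box bound by Sp1) and CACGTG (an E-box).
MSMO1: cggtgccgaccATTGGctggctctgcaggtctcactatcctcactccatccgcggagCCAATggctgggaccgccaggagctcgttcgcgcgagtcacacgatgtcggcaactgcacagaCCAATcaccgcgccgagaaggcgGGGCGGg
SREBF2: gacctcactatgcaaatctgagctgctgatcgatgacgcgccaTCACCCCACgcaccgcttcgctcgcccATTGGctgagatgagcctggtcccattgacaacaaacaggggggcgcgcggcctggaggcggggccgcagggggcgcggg
INSIG1: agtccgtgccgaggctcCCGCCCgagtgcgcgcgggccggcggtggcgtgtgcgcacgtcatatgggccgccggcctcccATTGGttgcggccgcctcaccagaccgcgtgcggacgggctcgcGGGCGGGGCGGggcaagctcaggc
INSIG2: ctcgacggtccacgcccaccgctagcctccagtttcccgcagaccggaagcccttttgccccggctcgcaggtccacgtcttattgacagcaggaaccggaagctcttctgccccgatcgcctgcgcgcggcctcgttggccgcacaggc
CH25H: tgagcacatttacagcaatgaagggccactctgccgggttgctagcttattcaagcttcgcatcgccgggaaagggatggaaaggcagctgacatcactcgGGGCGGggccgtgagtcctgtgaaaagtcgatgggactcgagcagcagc

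A window from 250 bases before to 50 bases after the start was held by the RefSeq table for 28 of the 33 genes, and ABCG1, ACAT2, FASN, FDFT1 and SQLE were not matched. CCAAT was present for 20 of the 28 genes (71.4%), against 43.3% of the tested genes with a window and 34.6% of all 35116 windows. GGGCGG was present for 27 of 28 (96.4%), against 77.5% of tested genes and 45.0% of windows. TCACCCCAC was present in 1 gene, SREBF2, at position -133 counted from the RefSeq start, against 0.572% of tested genes and 0.430% of windows. The looser TCACNCCAC found the same site and no other member (1.49% of tested genes, 1.13% of windows). With 1 mismatch to TCACCCCAC 7 of the 28 genes had a match, and 10.4% of windows did. The share of tested genes was not computed for that match, and a share of windows is not a like measure. CACGTG was present in ABCA1, INSIG1, LSS, SC5D and SCAP (17.9%, against 12.5% of tested genes and 7.26% of windows). The DR4 element, a direct repeat of AGGTCA with 4 bases between, was present in 0 of 28 genes and 0.0199% of windows. A match is a description of letters in the window, and no match says only that these letters are not in it.

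The enzymes that carry acetyl-CoA to farnesyl diphosphate changed little. Of these 7 mevalonate genes, 2 were lower, 0 were higher and 5 did not pass the test (median -0.075 on the log2 scale), and without siCTRL 2, 5 were lower and 2 did not pass (median -0.214). Those 2 calls are not firm: 0 genes were called lower without siCTRL 1, without siCTRL 3, without siRNA-1 replicate 2 or without siRNA-1 replicate 3. ACAT2, which makes acetoacetyl-CoA, was at 70.7, 59.3 and 70.4 CPM in the controls and at 58.5, 56.6 and 59.6 CPM in siRNA-1 libraries. All siRNA-1 values lay below siCTRL 1 and siCTRL 3, while siCTRL 2 lay within the siRNA-1 range. ACAT2 fell 1.15-fold (log2 fold change -0.20, adjusted p = 0.0359). The gene SOD2-OT1 on the opposite strand overlaps 33.9% of its exonic bases. MVD, the decarboxylase that makes isopentenyl diphosphate, fell 1.22-fold, from 27.3 ± 3.21 to 22.4 ± 0.951 CPM (adjusted p = 0.0218), with groups that did not overlap.

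HMGCS1, which makes HMG-CoA, was at 101, 74.4 and 101 CPM in the controls and at 85.3, 81.1 and 74.9 CPM in siRNA-1 libraries. siCTRL 2 lay below all siRNA-1 libraries and the other controls lay above them. Its log2 fold change was -0.20 with all libraries (adjusted p = 0.114) and -0.36 without siCTRL 2. IDI1, the isomerase of isopentenyl diphosphate, had a log2 fold change of 0.01 (95% interval -0.17 to 0.18, adjusted p = 0.959), and -0.12 without siCTRL 2. FDPS, which makes farnesyl diphosphate, went from 254.7 ± 37.6 to 241.9 ± 5.19 CPM (log2 fold change -0.07, adjusted p = 0.482), and -0.21 without siCTRL 2. The kinase genes MVK (0.00, 95% interval -0.19 to 0.20, adjusted p = 0.980) and PMVK (0.15, adjusted p = 0.356) did not pass with or without that library.

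From farnesyl diphosphate to cholesterol, 11 genes were measured: 4 were lower, 1 was higher and 6 did not pass (median -0.203 on the log2 scale). Without siCTRL 2, 10 were lower and 1 was higher (median -0.305). The largest change was that of MSMO1, the methylsterol monooxygenase that begins the stepwise removal of a pair of methyl groups from the sterol ring. MSMO1 (ENSG00000052802) is a protein-coding gene on the plus strand at chr4:165327623-165343160. It was at 244, 178 and 249 CPM in siCTRL 1 to 3 and at 42.5, 48.4 and 41.6 CPM in siRNA-1 replicates 1 to 3. The groups were far apart, with the lowest control, siCTRL 2, still far above the highest siRNA-1 library. MSMO1 fell 5.07-fold, with means of 223.7 ± 40.0 and 44.2 ± 3.67 CPM (adjusted p = 2.01e-08, log2 fold change -2.34, SE 0.12), and 5.67-fold without siCTRL 2.

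Among the enzymes that work beside MSMO1, none changed by as much: CYP51A1 was called lower, NSDHL was called lower without siCTRL 2 but not with it, and HSD17B7 was called higher. NSDHL, the dehydrogenase of the same demethylation, was at 55.2, 40.2 and 54.8 CPM in the controls and at 45.3, 46.3 and 42.3 CPM in siRNA-1 libraries. Its groups overlapped through siCTRL 2 (log2 fold change -0.17, adjusted p = 0.193, and -0.32 without siCTRL 2). HSD17B7, the ketoreductase that follows, was at 17.7, 16.2 and 17.5 CPM in the controls and at 23.3, 22.7 and 20.1 CPM in siRNA-1 libraries, with no overlap. It rose 1.29-fold (log2 fold change 0.36, adjusted p = 0.00519) and was the 1 gene called higher among the 18 of both routes, though it has a pseudogene that could take part of its reads. CYP51A1, the lanosterol demethylase, fell 1.39-fold, from 16.9 ± 2.50 to 12.2 ± 0.579 CPM (adjusted p = 0.00468), with no overlap. A second gene model on the same strand (ENSG00000285772) covers 79.4% of the exonic bases of CYP51A1 and was listed at 0 counts in all libraries, so that the level of CYP51A1 is uncertain.

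The remaining sterol genes had changes of less than 1.5-fold with all libraries. SC5D, a sterol desaturase, fell 1.18-fold (adjusted p = 0.00354), with groups apart, and TM7SF2, a sterol reductase, fell 1.33-fold (adjusted p = 0.0323), with siCTRL 2 at 15.5 CPM inside the siRNA-1 range of 14.9 to 17.5 CPM. EBP, the sterol isomerase, was at 37.98, 21.98 and 33.83 CPM in the controls and at 26.0, 25.2 and 21.5 CPM in siRNA-1 libraries. Its log2 fold change was -0.37 (adjusted p = 0.0636), and -0.59 without siCTRL 2. SQLE, the squalene epoxidase, had -0.20 (adjusted p = 0.0554), FDFT1, the squalene synthase, -0.11 (adjusted p = 0.221) and LSS, which closes the ring to lanosterol, -0.07 (adjusted p = 0.646). Without siCTRL 2 these were -0.30, -0.21 and -0.27, and all of them were called lower. DHCR7, a reductase of the last steps, was at 322, 214 and 327 CPM in the controls and at 298.7, 307 and 265 CPM in siRNA-1 libraries. All siRNA-1 values of DHCR7 lay between siCTRL 2 and the other controls (log2 fold change 0.01, 95% interval -0.27 to 0.30, adjusted p = 0.941, and -0.18 without siCTRL 2). Apart from MSMO1, the 17 mevalonate and sterol genes ranged from -0.47 to 0.36 with all libraries, 12 of them negative, and from -0.62 to 0.30 without siCTRL 2, 16 of them negative.

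**Figure D3:**
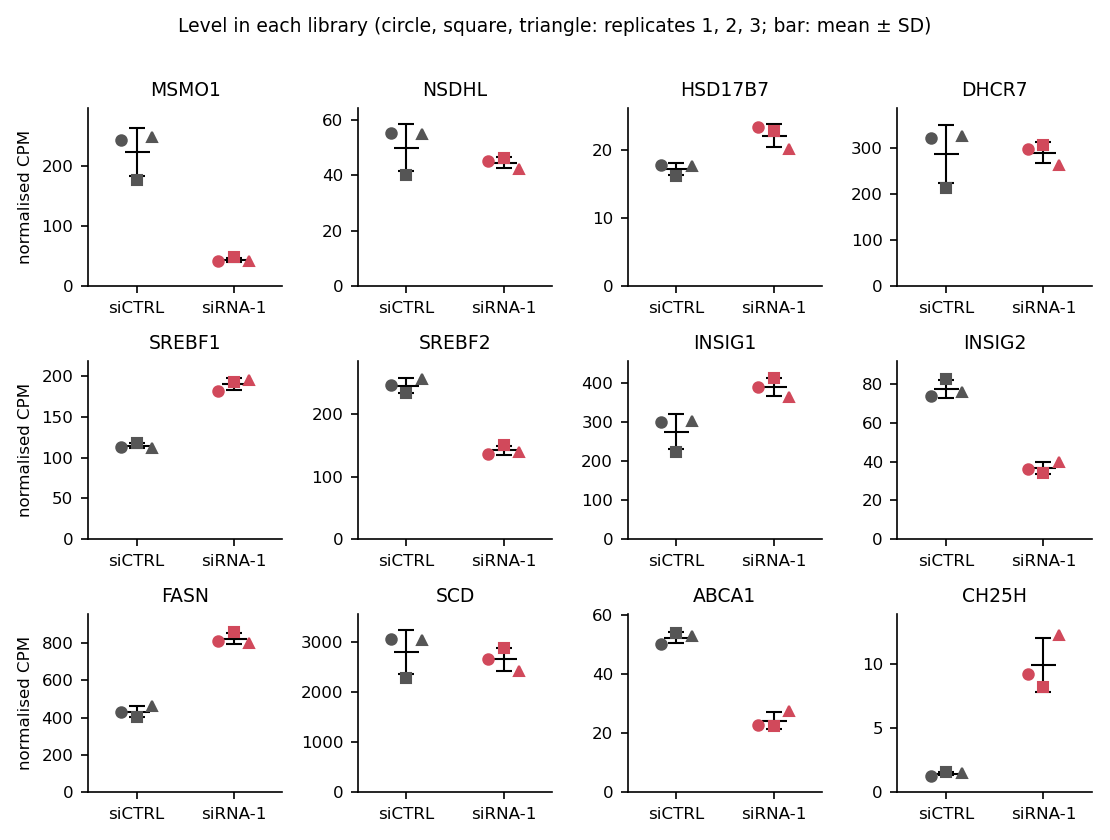
TMM-normalised CPM (y axis, from 0) of 12 genes, chosen after their values were seen, in each of the 3 siCTRL and 3 siRNA-1 libraries (x axis). Points are libraries (circle, square and triangle for replicates 1, 2 and 3) and bars show the mean and SD. MSMO1 falls from 178 to 249 CPM in the controls to 41.6 to 48.4 CPM, and siCTRL 2 is the low control of MSMO1 and INSIG1.

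The genes that control SREBP moved within pairs in opposite directions. Of the 6 genes of SREBP control and sterol transfer, 3 were higher and 3 lower, and the groups were apart at all 6. Over all genes tested 31.5% were higher, 31.0% lower and 67.6% had groups apart. The counts of the 6 genes were equal without siCTRL 2, where 77.8% of all genes tested had groups apart. SREBF1 (ENSG00000072310, minus strand at chr17:17810399-17837002) was at 113, 118 and 112 CPM in the controls and at 182, 193 and 196 CPM in siRNA-1 libraries. The controls lay within a narrow band well below the siRNA-1 libraries. SREBF1 rose 1.66-fold, with means of 114 ± 3.19 and 190.1 ± 7.26 CPM (adjusted p = 3.95e-07, log2 fold change 0.73, SE 0.055). The gene RAI1 on the opposite strand overlaps 6.92% of its exonic bases.

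SREBF2 (ENSG00000198911, plus strand at chr22:41833079-41907308), whose upstream sequence holds the 1 exact sterol element, was at 246, 233 and 257 CPM in the controls and at 136, 150.3 and 139 CPM in siRNA-1 libraries. The groups were apart, and siCTRL 2 lay near the other controls. SREBF2 fell 1.73-fold, with means of 245 ± 11.5 and 142 ± 7.46 CPM (adjusted p = 4.32e-07, log2 fold change -0.79, SE 0.060). Importin beta, which is known to carry SREBP-2 into the nucleus, is encoded by KPNB1, a gene chosen after its values were seen. KPNB1 fell 8.17-fold, from 593 ± 21.0 to 72.5 ± 1.33 CPM (adjusted p = 2.41e-11). Its part in the changes described here was not tested.

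INSIG1, which is itself a target of SREBP, and INSIG2 encode the proteins that retain SCAP. INSIG1 (ENSG00000186480, plus strand at chr7:155297776-155310235) was at 300, 223 and 302 CPM in the controls and at 389.9, 412 and 365 CPM in siRNA-1 libraries. All siRNA-1 libraries lay above all controls, and siCTRL 2 was the low control. INSIG1 rose 1.41-fold (log2 fold change 0.50, SE 0.099, adjusted p = 0.000916), and 1.27-fold without siCTRL 2. INSIG2 (ENSG00000125629, plus strand at chr2:118088452-118110997) was at 73.6, 82.3 and 75.6 CPM in the controls and at 36.1, 33.9 and 39.9 CPM in siRNA-1 libraries. The groups were far apart, and INSIG2 fell 2.11-fold, with means of 77.2 ± 4.58 and 36.6 ± 3.08 CPM (adjusted p = 2.75e-07, log2 fold change -1.07, SE 0.076). SCAP rose 1.10-fold (97.5 ± 2.12 to 107 ± 2.05 CPM, adjusted p = 0.0445), a call that was lost under 11 of 16 alternatives, among them DESeq2 (adjusted p = 0.122) and leaving out any library other than siCTRL 2. STARD4, a carrier that moves cholesterol between membranes, fell 1.27-fold (95.4 ± 6.18 to 75.1 ± 5.49 CPM, adjusted p = 0.00124).

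Ratios within a library show these contrasts without the scaling between libraries. They were taken per kilobase of exon for 6 pairs of genes chosen after their values were seen. The ratio of SREBF1 to SREBF2 was 0.433, 0.476 and 0.411 in the controls and 1.26, 1.21 and 1.32 in siRNA-1 libraries, so that the gene with the higher level per length changed from SREBF2 to SREBF1. The ratio of INSIG1 to INSIG2 was 4.41, 2.94 and 4.33 in the controls and 11.7, 13.2 and 9.89 in siRNA-1 libraries. The ratio of MSMO1 to NSDHL was 3.05, 3.05 and 3.14 in the controls, where siCTRL 2 no longer stood apart, and 0.648, 0.721 and 0.678 in siRNA-1 libraries. In these pairs, and in MSMO1 to CYP51A1, FASN to SCD and ABCA1 to MYLIP, the groups did not overlap. An exact permutation test over libraries gave two-sided p = 0.10 for each pair and adjusted p = 0.10 over 6 pairs. That is the smallest p that 3 against 3 allows. Since the pairs were picked on these same values, the test adds no support.

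**Figure D4:**
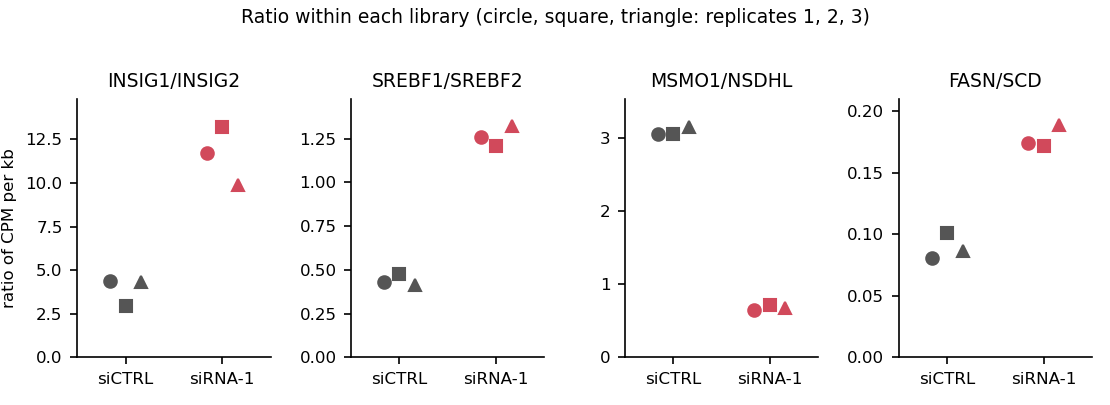
Ratio of the levels per kilobase of exon of 2 genes (y axis, from 0) in each library, for siCTRL and siRNA-1 (x axis) and 4 of the 6 pairs. Points are libraries (circle, square and triangle for replicates 1, 2 and 3). The ratio of SREBF1 to SREBF2 lies at 0.411 to 0.476 in the controls and at 1.21 to 1.32 in siRNA-1 libraries, and that of MSMO1 to NSDHL at 3.05 to 3.14 and at 0.648 to 0.721.

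Of the 4 fatty acid synthesis genes among the 33, 3 rose and 1, the desaturase SCD, did not pass (median 0.543 on the log2 scale). In the wider list of fatty acid supply, elongation and desaturation given below, 8 of 21 genes were higher and 10 lower. The lower included ACACB, ACSS2, MID1IP1 and SCD5 and the higher ME1, SLC25A1 and FADS2, all chosen after their values were seen. ACLY, which makes cytosolic acetyl-CoA from citrate, was at 427, 416 and 443 CPM in the controls and at 627, 669 and 602 CPM in siRNA-1 libraries. ACLY rose 1.48-fold (log2 fold change 0.56, adjusted p = 3.82e-06), and the groups were far apart. ACACA, the carboxylase that makes malonyl-CoA, rose 1.44-fold, from 182, 178 and 186 CPM to 258, 271 and 256 CPM (adjusted p = 3.80e-06), again with no overlap.

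FASN (ENSG00000169710, minus strand at chr17:82078333-82098332), the synthase that builds palmitate, was at 433, 405 and 462 CPM in the controls and at 812, 860.3 and 801 CPM in siRNA-1 libraries. FASN rose 1.90-fold, with means of 433 ± 28.3 and 824 ± 31.6 CPM (adjusted p = 1.18e-07, log2 fold change 0.93, SE 0.059). SCD, which puts the double bond into the product, was at 3055, 2287 and 3048 CPM in the controls and at 2666, 2870 and 2421 CPM in siRNA-1 libraries. The groups of SCD overlapped, with siCTRL 2 below every siRNA-1 library. SCD had a log2 fold change of -0.08 (95% interval -0.30 to 0.14, adjusted p = 0.525), and without siCTRL 2 it was called lower at -0.22. Per kilobase of exon SCD had the highest level of the 33 genes in both groups, at 522 CPM per kb in siCTRL and 495 in siRNA-1, followed in siCTRL by ACLY (82.2), MSMO1 (77.3), INSIG1 (75.4), DHCR7 (69.2) and FDPS (68.5). In siRNA-1 MSMO1 was at 15.3 and FASN at 88.0 CPM per kb, from 46.3 in siCTRL.

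The LXR and oxysterol genes moved in both directions. Of 5 genes, 3 were higher, 1 was lower and 1 did not pass (median 0.673 on the log2 scale), with the same counts without siCTRL 2. CH25H, the hydroxylase that makes an oxysterol from cholesterol and that interferon is known to induce, had 19, 20 and 20 reads in the controls and 132, 124 and 180 reads in siRNA-1 libraries. These are 1.30, 1.55 and 1.49 CPM and 9.22, 8.21 and 12.3 CPM, a low level in the controls with no overlap. CH25H (ENSG00000138135, minus strand at chr10:89205629-89207314) rose 6.83-fold (log2 fold change 2.77, SE 0.22, adjusted p = 5.42e-07). NR1H2, which encodes LXR beta, rose 1.59-fold, from 98.7, 97.5 and 102 CPM to 159.6, 159 and 157 CPM (log2 fold change 0.67, adjusted p = 5.23e-07).

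Targets of LXR did not share a direction. ABCA1 (ENSG00000165029, minus strand at chr9:104781002-104928237), the pump that exports cholesterol to lipoproteins, was at 50.3, 53.9 and 52.9 CPM in the controls and at 22.9, 22.4 and 27.7 CPM in siRNA-1 libraries. The groups were far apart, and ABCA1 fell 2.15-fold (log2 fold change -1.10, SE 0.088, adjusted p = 6.71e-07). MYLIP, a ubiquitin ligase that marks lipoprotein receptors for degradation, was at 25.9, 35.1 and 29.1 CPM in the controls and at 50.2, 51.7 and 57.0 CPM in siRNA-1 libraries. MYLIP rose 1.77-fold (log2 fold change 0.82, adjusted p = 2.34e-05), with no overlap. ABCG1, another cholesterol exporter and the gene with the lowest level per kilobase of the 33, was at 3.42, 5.13 and 2.75 CPM in the controls and at 4.19, 3.58 and 3.34 CPM in siRNA-1 libraries. The controls of ABCG1 spanned the siRNA-1 range (log2 fold change -0.02, 95% interval -0.53 to 0.49, adjusted p = 0.950).

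Other genes of lipid metabolism were read from 7 lists of 105 genes, of which 100 were tested. Of these 32 were higher, 43 lower and 25 not called (median log2 fold change -0.045), and the counts of each list are to be read against the 31.5% of all genes called higher and the 31.0% called lower. The 3 genes with the smallest adjusted p of each list are named. Genes of SREBP processing and of sterol-regulated degradation were lower at 6 of 12 and higher at 3. ERLIN2 and ERLIN1, which encode partner proteins of the endoplasmic reticulum that hold sterol-regulated enzymes for degradation, fell 3.63-fold (96.8 ± 9.35 to 26.7 ± 0.398 CPM, adjusted p = 4.90e-09) and 1.91-fold (142 ± 13.3 to 74.3 ± 0.789 CPM). UBE2G2, the ubiquitin-conjugating enzyme of that route, fell 1.60-fold. In the list of further LXR and oxysterol genes 7 of 9 tested were lower and 0 higher (median -0.777). CYP27A1, the sterol hydroxylase of mitochondria, fell 3.12-fold (20.5 ± 0.561 to 6.58 ± 0.462 CPM, adjusted p = 1.18e-07), PLTP, a phospholipid transfer protein, fell 2.78-fold, and HSD3B7, an enzyme of bile acid synthesis, fell 2.09-fold. NR1H3, which encodes LXR alpha and was chosen after its values were seen, was at 10.7, 10.7 and 9.22 CPM in the controls and had a mean of 5.97 ± 0.538 CPM in siRNA-1 libraries (log2 fold change -0.78, adjusted p = 0.000317).

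Genes of fatty acid supply, elongation and desaturation were higher at 8 of 21 and lower at 10 (median log2 fold change -0.19). Genes of chain elongation moved both ways. Those of smallest adjusted p fell: HSD17B12, a reductase of the elongation cycle, 2.91-fold (164 ± 11.8 to 56.5 ± 3.00 CPM, adjusted p = 7.31e-09), and the elongases ELOVL1 2.01-fold and ELOVL5 1.71-fold. HACD2 (1.18-fold), HACD3 (1.09-fold) and TECR (1.15-fold), which act in the same cycle and were chosen after their values were seen, rose. Of 18 genes of cholesterol uptake, transport and storage, 8 were higher and 7 lower. TMEM97, a sterol-responsive membrane protein that binds NPC1, fell 3.57-fold (57.1 ± 9.10 to 16.01 ± 0.357 CPM, adjusted p = 9.11e-08), the lipoprotein receptor gene VLDLR fell 1.90-fold, and STARD3, a carrier of cholesterol at endosomes, rose 1.47-fold. Of 17 genes of the isoprenoid branch, 8 were higher and 6 lower (median 0.22). DOLPP1, a phosphatase of dolichol recycling, rose 2.27-fold, PGGT1B, a subunit of a protein prenyltransferase, fell 2.36-fold, and ICMT, which methylates prenylated proteins, fell 1.64-fold.

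Of 11 genes of triglycerides and lipid droplets, 3 were higher and 3 lower. GPAM, the acyltransferase of mitochondria that begins glycerolipid synthesis, fell 4.10-fold (25.8 ± 2.41 to 6.30 ± 0.864 CPM, adjusted p = 7.76e-08), DGAT1, which makes triglyceride, fell 1.58-fold, and the droplet coat gene PLIN3 rose 1.37-fold. Of 12 genes of fatty acid oxidation, 2 were higher and 4 lower. ACAA2, a thiolase, fell 2.14-fold, while HADHA and ETFDH, other enzymes of that route, rose 1.29-fold and 1.40-fold. Without siCTRL 2 the 100 genes split into 33 higher and 46 lower, with 9 higher in the isoprenoid branch, 12 lower in fatty acid supply and 8 lower in cholesterol uptake, and equal counts in the other 4 lists.

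**Figure D5:**
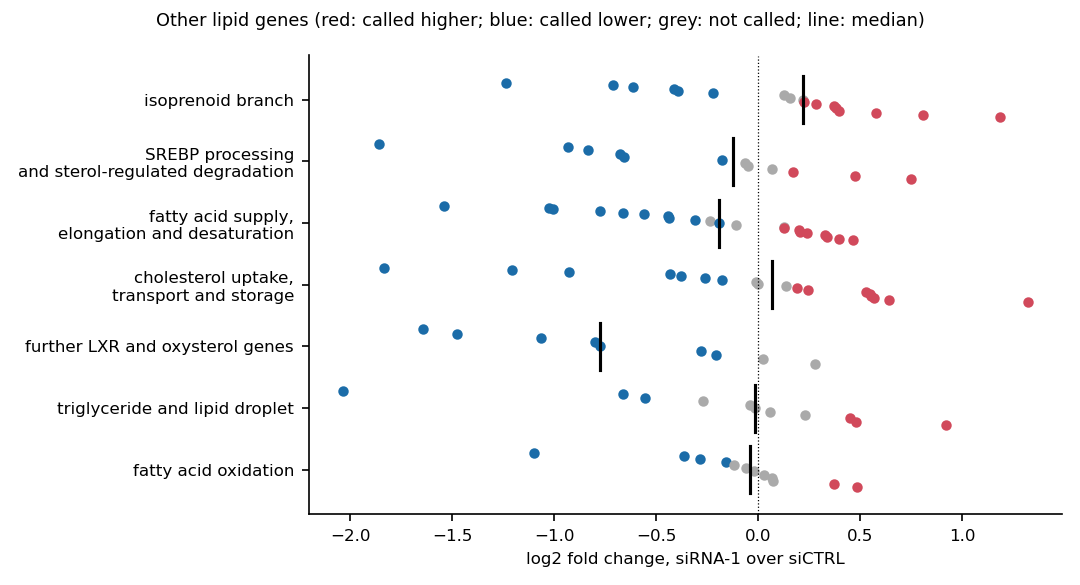
Log2 fold change of siRNA-1 over siCTRL (x axis) of the 100 other lipid genes tested, by list (y axis). Points are genes, red where called higher, blue where called lower and grey where not called, and vertical lines are medians. The list of further LXR and oxysterol genes has its median at -0.777 and no red point.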

How the data were processed

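RNA was sequenced from 6 cultures of MDA-MB-231, 3 per group, from libraries made with the NEBNext Ultra kit, per the labels. The authors deposited raw counts per Ensembl gene. The tools Trimmomatic, STAR, HTSeq and kallisto and the build hg38 are named in the submitters' processing notes, with no version. No source used here gives the annotation, the strand setting or any filter. Without strand, reads of overlapping genes on opposite strands cannot be told apart. In 7 of the 33 genes another gene, on the opposite strand except for CYP51A1, covers over 5% of exonic bases. These are CYP51A1 (79.4%), ACAT2 (33.9%), FDPS (18.6%), HMGCS1 (15.0%), IDI1 (14.8%), SREBF1 (6.92%) and LSS (6.19%).

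The whole table was fitted in R 4.3.3 with edgeR 4.0.16 (filterByExpr, minimum count 10 and minimum total 15, which removed 7602 genes; TMM; quasi-likelihood F test with group only; Benjamini-Hochberg over 12440 genes), with a common biological coefficient of variation of 0.0656. Each SE is the absolute log2 fold change over the square root of F. Levels per kilobase used merged exons of GENCODE 29, and coordinates are GRCh38. Alternatives were DESeq2 1.42.0 size factors and Wald test, limma 3.58.1 voom, no scaling, other filters, the replicate number as a block, a threshold of 0.01 and leaving out each library. Members, lists and the motifs were chosen with earlier results of these data known. A search of untranslated regions for a short sequence is not reported here. Named genes beyond the 33 were the 3 of smallest adjusted p in each further list, and others are said to be chosen after their values were seen. On simulated counts (12361 genes tested), recovery was 42.9% at a 1.25-fold change, 77.6% at 1.5-fold, 96.0% at 2-fold and 100% at 4-fold. Unchanged genes made up 6.59% of the calls. Only 49 or 50 genes were changed at each size, whereas 62.5% of genes tested were called in the data. No simulated library was set apart as siCTRL 2 was, so these rates do not give the power of this comparison.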

Additional observations from a re-analysis of the deposited data

How the results depend on the processing

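Of the 20 genes called, 15 kept their direction and call under all 16 alternatives, and CH25H did under the 15 that tested it, since a mean of 100 counts removed it. ACAT2 lost the call under 7, MVD and TM7SF2 under 5 and SCAP under 11. The number called lower rested on siCTRL 2. It was 10 with all libraries, and without that library 20 by edgeR, 20 by limma-voom and 19 by DESeq2. Of the 13 genes not called, 10 were then called by edgeR. They include small changes, such as IDI1 at 1.09-fold and LSS at 1.21-fold. Leaving out each library in turn gave 7 to 20 lower and 9 or 10 higher. Genes near 0 changed sign. MVK went to -0.005 with DESeq2 size factors, -0.034 at a mean of 100 counts and -0.004 by DESeq2, and IDI1 to -0.002, -0.031 and -0.002. DHCR7 went to -0.024 at a mean of 100 counts, and ABCG1 to 0.016 with no scaling and 0.023 by limma-voom. With 1 library left out the log2 fold change ranged from -0.117 to 0.052 for MVK, -0.029 to 0.255 for PMVK, -0.12 to 0.057 for IDI1, -0.273 to 0.030 for LSS, -0.183 to 0.103 for DHCR7 and -0.206 to 0.234 for ABCG1. Without siCTRL 2, limma-voom gave -0.117, -0.031, -0.12, -0.186 and 0.232 for MVK, PMVK, IDI1, DHCR7 and ABCG1, and DESeq2 gave -0.11, -0.024, -0.113, -0.177 and 0.244. The cause was not tested. With 1 mismatch to TCACCCCAC, 7 genes matched in place of 1.

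With the replicate number as a block, 9 genes were higher and 10 lower, and SCAP lost its call (adjusted p = 0.0798). Deviations of libraries with the same number correlated at 0.067, -0.078 and -0.057, and only number 1 correlated best with itself in both groups, so the numbers were not taken to pair the samples. In simulated counts with 3 libraries a group 42.9% of 1.25-fold changes were recovered. Far fewer genes were changed there than were called in the data, so this is not the power of this comparison. CH25H rests on 19 to 20 reads per control library.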
